A study of Mus musculus with 38 samples.

Results

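The immunity-related GTPases (IRGs) are a family of interferon-induced proteins, and 6 mouse genes of the family, Irgm1, Irgm2, Igtp, Iigp1, Tgtp1 and Tgtp2, were followed here in kidney RNA-Seq libraries. They are 6 of the 55487 genes in the count table and were taken by gene symbol. The 6 genes were chosen from earlier results of the same libraries, namely their higher counts with FGF23 in mice with anti-glomerular basement membrane (anti-GBM) disease, so every value from that experiment is a description and carries no p-value. The Adriamycin and kidney slice libraries were not used for that choice, and values from them are given with their tests. All 6 genes passed the filter on low counts in each experiment, in which 15859, 16020 and 15090 genes were tested for the anti-GBM mice, the Adriamycin mice and the slices.

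The study asked how excess fibroblast growth factor 23 (FGF23), a bone hormone that lowers phosphate reabsorption in the kidney, acts on diseased kidneys, and it holds 38 libraries in 10 groups. In the anti-GBM experiment, male C57BL/6JRj mice were immunised at 8 weeks of age with sheep IgG in Freund's complete adjuvant and then given nephrotoxic serum, whereas healthy mice received PBS. Recombinant human FGF23 (1 µg) or vehicle was injected intravenously once a day for 6 days, and kidneys were collected 24 h after the last injection. This gave 4 healthy vehicle, 3 healthy FGF23, 4 anti-GBM vehicle and 3 anti-GBM FGF23 libraries. In the Adriamycin experiment, female BALB/c mice received a single intravenous dose of Adriamycin, which injures podocytes, or remained healthy, and each set was given 1 injection of FGF23 (1 µg) or vehicle 24 h before collection, with 4 libraries in each of 4 groups. Mice of both experiments were killed at 10 weeks. In the slice experiment, precision-cut kidney slices of adenine-fed male DBA/2J mice aged 23 weeks were cultured with vehicle or 200 ng/mL FGF23, with 4 slices each and no slices from healthy kidneys. The labels give 1 h of FGF23 for the slices, whereas the study's text gives 24 h. The study describes the slices of a group as independent biological replicates, although neither source ties a slice to an animal. Strain, sex, disease and length of FGF23 exposure change together between the experiments and cannot be told apart, and each experiment was normalised on its own.

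Depth ranged over 13704248 to 23630210 counts among the anti-GBM experiment's libraries, 15665050 to 27583911 among the Adriamycin libraries and 11186925 to 16254987 among the slices. Each library followed the median of its own group with a Pearson correlation of at least 0.975 across genes, the lowest being slice 1 with FGF23. Kidney markers were present in all libraries, their sum over 10 genes being 11010 to 17416 CPM (read counts scaled to library size) in the mice and 2630 to 8010 CPM in the slices. Levels below are CPM on library sizes scaled by the trimmed mean of M values, and differences are log2 fold changes from edgeR with their standard errors (SE). A gene was called at a Benjamini-Hochberg adjusted p under 0.05. Libraries are named by their numbers in the count table (NTS for the nephrotoxic serum experiment, Ad for the Adriamycin experiment).

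IRGs defend cells against vacuole-dwelling parasites and bacteria. In resting cells they are little expressed, and interferon-gamma, through its receptor and transcription factors such as IRF1, induces them in macrophages and in many other cell types, epithelial cells included. Irgm1, Irgm2 and Igtp (also named Irgm3) encode the regulatory IRGM proteins, which sit on the cell's own membranes and hold the other IRGs in an inactive state there. Iigp1 (Irga6) and the near-identical pair Tgtp1 and Tgtp2 (Irgb6) encode effector GTPases that load onto the pathogen's vacuole and help to disrupt it. The guanylate-binding proteins are a related family of interferon-induced GTPases that act on the same vacuoles, and the ATG8 conjugation machinery of autophagy helps to direct both families to them.

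On GRCm38, 5 of the genes lie on chromosome 11. Irgm1 (ENSMUSG00000046879) spans chr11:48861968-48871683, Tgtp1 (ENSMUSG00000078922) chr11:48985327-48994172 and Tgtp2 (ENSMUSG00000078921) chr11:49057194-49064206, all on the minus strand. Igtp (ENSMUSG00000078853) at chr11:58199556-58207591 and Irgm2 (ENSMUSG00000069874) at chr11:58199618-58222782 overlap on the plus strand and share 162 exon bases. Tgtp1 and Tgtp2 are close copies: 77.9% of the 58-base windows of Tgtp1 transcripts, the length of the reads, also occur in Tgtp2, and 84.4% of those of Tgtp2 occur in Tgtp1. The split of reads between these copies is therefore uncertain, and their sum is given where it matters. For Irgm2 and Igtp, 6.69% and 10.3% of windows are shared with another gene, and for Irgm1 and Iigp1 0.241% and 0.845%.

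The promoters are shown because the 6 genes moved together across the libraries of the mice and are textbook targets of interferon signalling. RefSeq promoters (GRCm38.p6, 250 bases before to 50 bases after the start) were found for 5 of the 6 genes. They were searched on both strands for 2 motifs, the gamma-activated sequence (GAS, TTCNNNGAA), found in promoters that interferon-gamma induces, and the interferon-stimulated response element (ISRE, GAAANNGAAA), which transcription factors of the IRF family bind. The windows of 70 bases around the matches read as follows, 5′ to 3′ on the strand of the gene, with the matches in capitals.
Irgm1, chr11:48871415-48871484, minus strand: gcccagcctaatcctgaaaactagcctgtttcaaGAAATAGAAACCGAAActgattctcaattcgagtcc
Irgm2, chr11:58214873-58214942, plus strand: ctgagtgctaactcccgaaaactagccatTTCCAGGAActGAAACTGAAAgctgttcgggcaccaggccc
Igtp, chr11:58199482-58199551, plus strand: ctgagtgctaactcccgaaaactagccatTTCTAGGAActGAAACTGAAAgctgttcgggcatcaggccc
Tgtp1, chr11:48992294-48992363, minus strand: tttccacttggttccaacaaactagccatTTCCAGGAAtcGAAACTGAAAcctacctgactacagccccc
Tgtp2, chr11:49064253-49064322, minus strand: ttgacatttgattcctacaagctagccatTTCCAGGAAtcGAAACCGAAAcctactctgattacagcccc
Irgm2, Igtp, Tgtp1 and Tgtp2 each held a GAS match followed after 2 bases by an ISRE match. Irgm1 held 2 overlapping ISRE matches and no GAS match. Among IRG-like genes outside the 6, Gm12185 held the same GAS and ISRE arrangement, Gm12250 held both motifs and 9930111J21Rik1 an ISRE match only. The promoters of Gm5431, 9930111J21Rik2 and Irgq held neither. Among all 32851 RefSeq promoters of the same length, 8.3% held the GAS letters, 3.44% held the ISRE letters and 0.454% held both. The GAS letters read the same on both strands, so each GAS match counts on both. The windows of Irgm2 and Igtp were identical at 97.1% of positions, those of Tgtp1 and Tgtp2 at 75.7%, and the other pairs among these 4 genes at 58.6% to 67.1%. A match is a description of the letters and not evidence of binding.

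In mice with anti-GBM disease, all 6 genes were higher after FGF23 than after vehicle, between 2.14-fold for Irgm1 and 5.54-fold for Tgtp1, and no FGF23-treated library overlapped with a vehicle library for any of them. Among the regulators, Irgm1 stood at 61.1, 76.2, 83.7 and 70.8 CPM in the anti-GBM vehicle libraries and at 174, 176 and 119 CPM in the anti-GBM FGF23 libraries, a log2 fold change of 1.10 (SE 0.16). Irgm2 stood at 21.1, 27.7, 32.4 and 25.6 CPM with vehicle and at 85.4, 114 and 49.5 CPM with FGF23 (log2 fold change 1.64, SE 0.25). Igtp went from 12.4, 17.1, 19.6 and 17.8 CPM to 56.1, 79.7 and 42.1 CPM (1.83, SE 0.26). For each of these regulators the lowest FGF23 library was NTS16, and it was still above the highest vehicle library.

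The effectors lay further apart between the groups. Iigp1 (ENSMUSG00000054072), the only 1 of the 6 genes outside chromosome 11, on chromosome 18, stood at 10.1, 14.3, 14.9 and 10.4 CPM in anti-GBM vehicle libraries and at 45.5, 62.5 and 42.5 CPM in anti-GBM FGF23 libraries, a log2 fold change of 2.01 (SE 0.26). Tgtp1 went from 3.27, 4.83, 4.93 and 4.25 CPM to 27.5, 27.4 and 16.9 CPM (2.47, SE 0.28). Tgtp2 went from 3.42, 3.47, 3.13 and 3.24 CPM to 12.6, 19.1 and 11.8 CPM (2.12, SE 0.24). In all 3 effectors, too, NTS16 was the lowest of the FGF23 libraries. With the reads of the close copies Tgtp1 and Tgtp2 added before the fit, the log2 fold change was 2.33, between their separate values.

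Expressed as group means, Irgm1 was at 72.9 ± 9.51 CPM under vehicle (SD, n = 4) and at 156 ± 32.5 CPM under FGF23 (SD, n = 3), and Tgtp1 at 4.32 ± 0.760 and 23.9 ± 6.10 CPM. All 6 genes were called higher and all 6 had groups that did not overlap, where 0.233% of the 15859 tested genes were called higher, 0.24% were called in either direction, and 5.11% were higher with groups that did not overlap. Because this contrast led to the choice of the 6 genes, nothing is read from these counts. The calls of the 6 genes numbered 4 without library NTS13, 4 without NTS14 and 6 without NTS16.

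**Figure D1:**
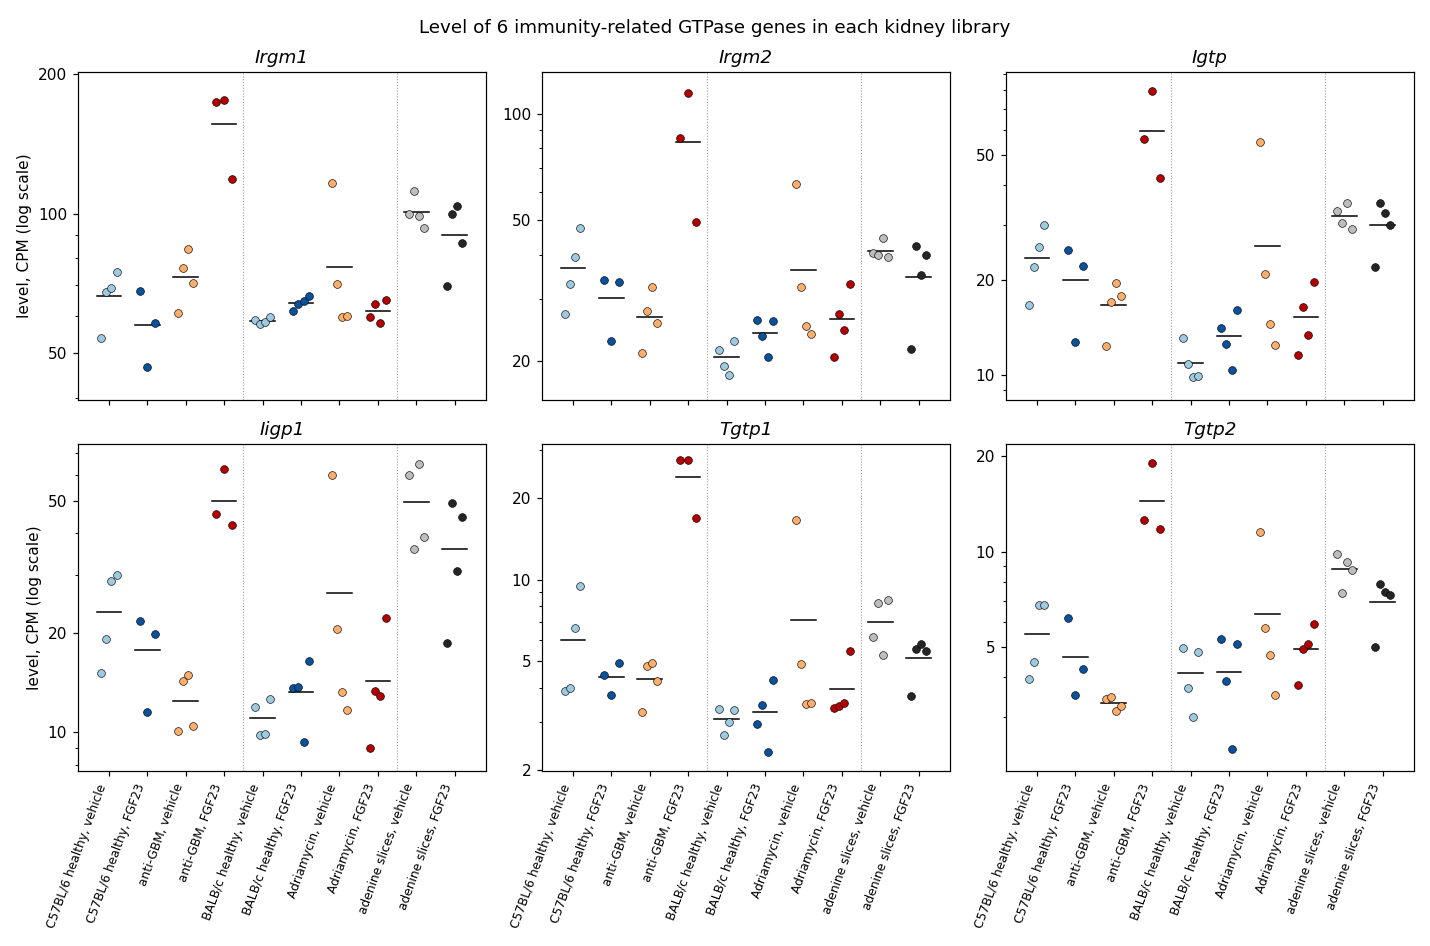
CPM of each of the 6 IRG genes in every library (log axis), with 1 panel for each gene, 1 point for each library, a bar at each group mean and groups along the horizontal axis. The 3 anti-GBM FGF23 libraries lie above all 4 anti-GBM vehicle libraries in every panel, from 119 against 83.7 CPM at the closest for Irgm1 to 16.9 against 4.93 CPM for Tgtp1, and 1 Adriamycin vehicle library stands above the rest of its group.

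In healthy C57BL/6JRj mice the same 6 daily injections of FGF23 went with values at or slightly below those of vehicle. Irgm1 stood at 53.9, 67.6, 69.0 and 74.7 CPM in healthy vehicle libraries and at 68.2, 46.6 and 57.9 CPM in healthy FGF23 libraries. Iigp1 stood at 15.2, 19.1, 28.6 and 29.8 CPM and at 21.8, 11.5 and 19.9 CPM, and Tgtp1 at 3.90, 3.99, 6.64 and 9.47 CPM and at 4.46, 3.75 and 4.95 CPM. The groups overlapped for all 6 genes. The log2 fold changes were -0.20 for Irgm1, -0.29 for Irgm2, -0.24 for Igtp, -0.39 for Iigp1, -0.45 for Tgtp1 and -0.24 for Tgtp2, and 0 of the 6 were called, the background being 0% of tested genes. Without NTS10, the healthy FGF23 library with the lowest Igtp, the log2 fold change of Igtp was 0.0071. By edgeR, 0 of the 6 genes and 689 of the 15859 tested passed an unadjusted p under 0.05, given here as a description.

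The difference between the effects of FGF23 in anti-GBM and in healthy mice, fitted as an interaction, was above 0 for all 6 genes. It was 1.30 (SE 0.23) for Irgm1, 1.92 (SE 0.36) for Irgm2 and 2.07 (SE 0.37) for Igtp on the log2 scale. For the effectors it was 2.39 (SE 0.37) for Iigp1, 2.92 (SE 0.41) for Tgtp1 and 2.36 (SE 0.34) for Tgtp2. Only the 3 effectors were called, against a background of 0.0315% of tested genes in either direction and 0.0315% higher, which is 5 genes. The number of the 6 genes called changed with the library left out, from 0 to 6, so the division between effectors and regulators in the calls rests on single libraries. The interaction holds the contrast that led to the choice of the 6 genes, so nothing is read from these counts.

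Anti-GBM disease itself, in mice given vehicle, went with lower levels of 5 of the 6 genes, where 8116 of the 15859 tested genes were lower. The log2 fold changes against healthy vehicle mice were -0.89 (SE 0.24) for Iigp1, -0.72 (SE 0.23) for Tgtp2, -0.49 for Igtp, -0.47 for Tgtp1 and -0.46 for Irgm2, and 0.14 for Irgm1. Iigp1 stood at 10.1 to 14.9 CPM against 15.2 to 29.8 CPM in healthy mice, and Tgtp2 at 3.13 to 3.47 against 3.96 to 6.79 CPM. Iigp1 and Tgtp2 fell and did not overlap, 2 of 6 genes, where 39.8% of tested genes were called in either direction, 20.4% were called lower and 18.3% were lower with groups that did not overlap. With the reads of Tgtp1 and Tgtp2 added, the log2 fold change was -0.59 and was not called. The anti-GBM vehicle libraries were also part of the contrast that led to the choice of the 6 genes, so nothing is read from these counts.

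Among mice given FGF23, the 6 genes were instead higher in anti-GBM disease than in healthy mice. The log2 fold changes were 1.44 for Irgm1, 1.46 for Irgm2, 1.57 for Igtp, 1.503 for Iigp1, 2.45 for Tgtp1 and 1.64 for Tgtp2. All 6 were called and did not overlap, where 27.2% of tested genes were called in either direction, 14.5% were called higher and 22.5% were higher without overlap. These contrasts share the anti-GBM FGF23 libraries with the comparison of FGF23 and vehicle above, so they do not count as separate evidence.

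**Figure D2:**
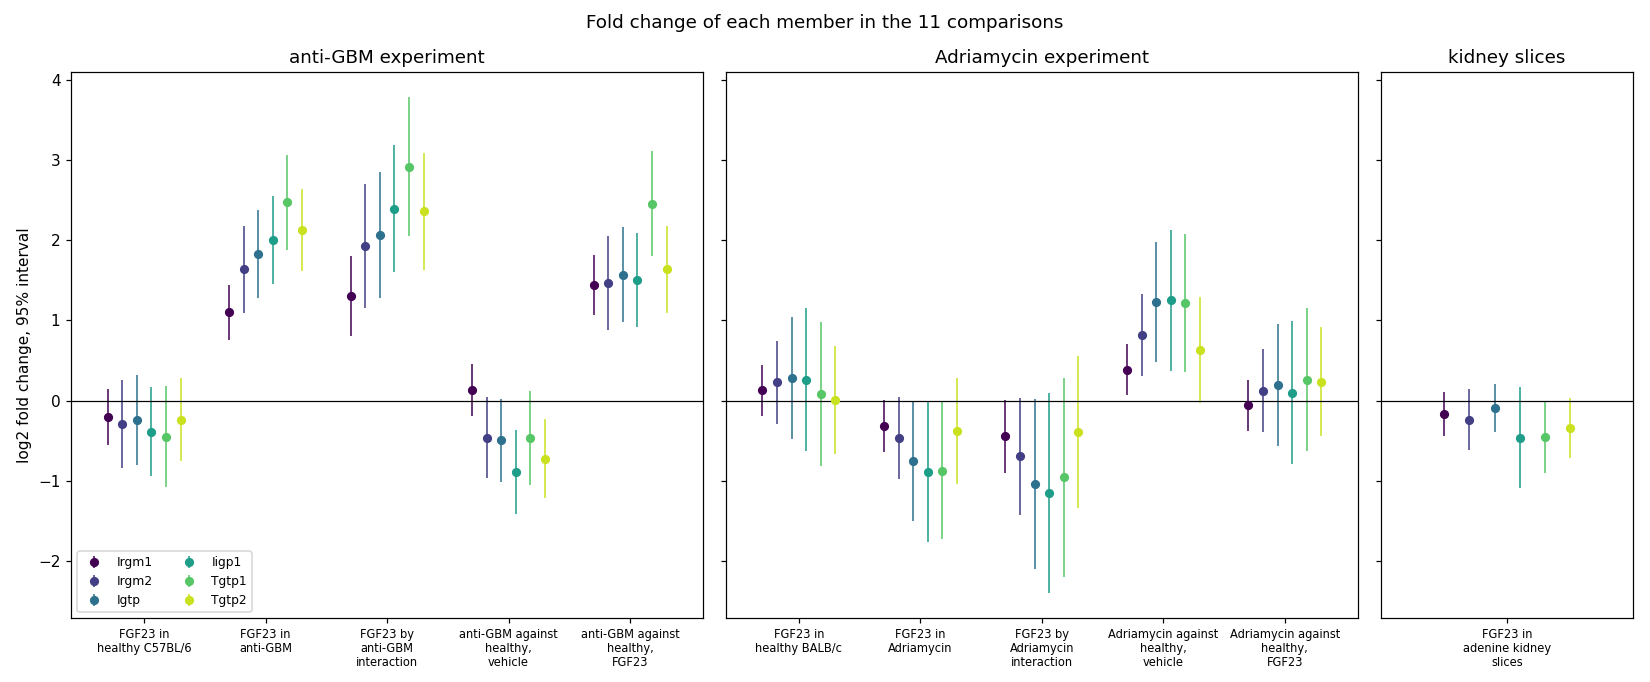
Log2 fold changes (vertical axis) of the 6 IRG genes, called members in the plot, in the 11 comparisons of the 3 experiments (horizontal axis), with points at the edgeR estimate and lines at its 95% interval. In anti-GBM mice the FGF23 estimates run from 1.10 to 2.47, whereas FGF23 estimates in healthy C57BL/6JRj mice run from -0.45 to -0.20 and those in slices from -0.46 to -0.09.

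In each of the 10 groups the 3 regulators had the highest mean levels per length, followed by Iigp1 and then the Tgtp1 and Tgtp2 pair. The place of that pair is uncertain, since 79.9% of Tgtp1 windows and 84.9% of Tgtp2 windows occur in another gene. The part of shared reads in the low levels of the pair was not tested. Per kilobase of merged exons, healthy C57BL/6JRj vehicle kidneys held 11.6 ± 2.77 CPM of Igtp (SD, n = 4), 11.4 ± 1.52 of Irgm1 and 9.96 ± 2.35 of Irgm2. These ranges of mean ± SD over libraries overlapped. The genes were measured in the same libraries, and their order within each library was not tested. Iigp1 followed at 3.98 ± 1.23, and Tgtp1 and Tgtp2 were both at 1.87 CPM per kilobase. In anti-GBM kidneys with FGF23 the regulators again led, with Igtp at 29.3 ± 9.39, Irgm1 at 26.9 ± 5.60 and Irgm2 at 22.5 ± 8.78 CPM per kilobase (SD, n = 3), ahead of Iigp1 at 8.61 ± 1.85, Tgtp1 at 7.47 ± 1.90 and Tgtp2 at 4.93 ± 1.36. The ranges of mean ± SD of neighbours within the regulators, and of Iigp1 and Tgtp1, overlapped there. In healthy BALB/c kidneys with vehicle, Irgm1 stood alone at 10.1 ± 0.144, with Irgm2 at 5.56 ± 0.549 and Igtp at 5.41 ± 0.758 CPM per kilobase (SD, n = 4).

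In the mice the genes also moved together from library to library. Over the 14 anti-GBM experiment libraries, the Pearson correlations of log2 CPM between pairs of the 6 genes ran from 0.814 to 0.985, and from 0.660 to 0.937 once each group's mean was taken away. Over the 16 Adriamycin libraries they ran from 0.727 to 0.980, and from 0.712 to 0.987 after group means. Over the 8 slices they ran from 0.341 to 0.905, and from 0.0526 to 0.914 after group means, so not every pair moved together there. Genes of 1 library share its RNA and its depth, and Tgtp1 and Tgtp2 also share reads, so these values are a description. In the plot of levels by library, the 6 genes of a library sit close to each other compared with the distance between libraries such as NTS10 and NTS14.

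**Figure D3:**
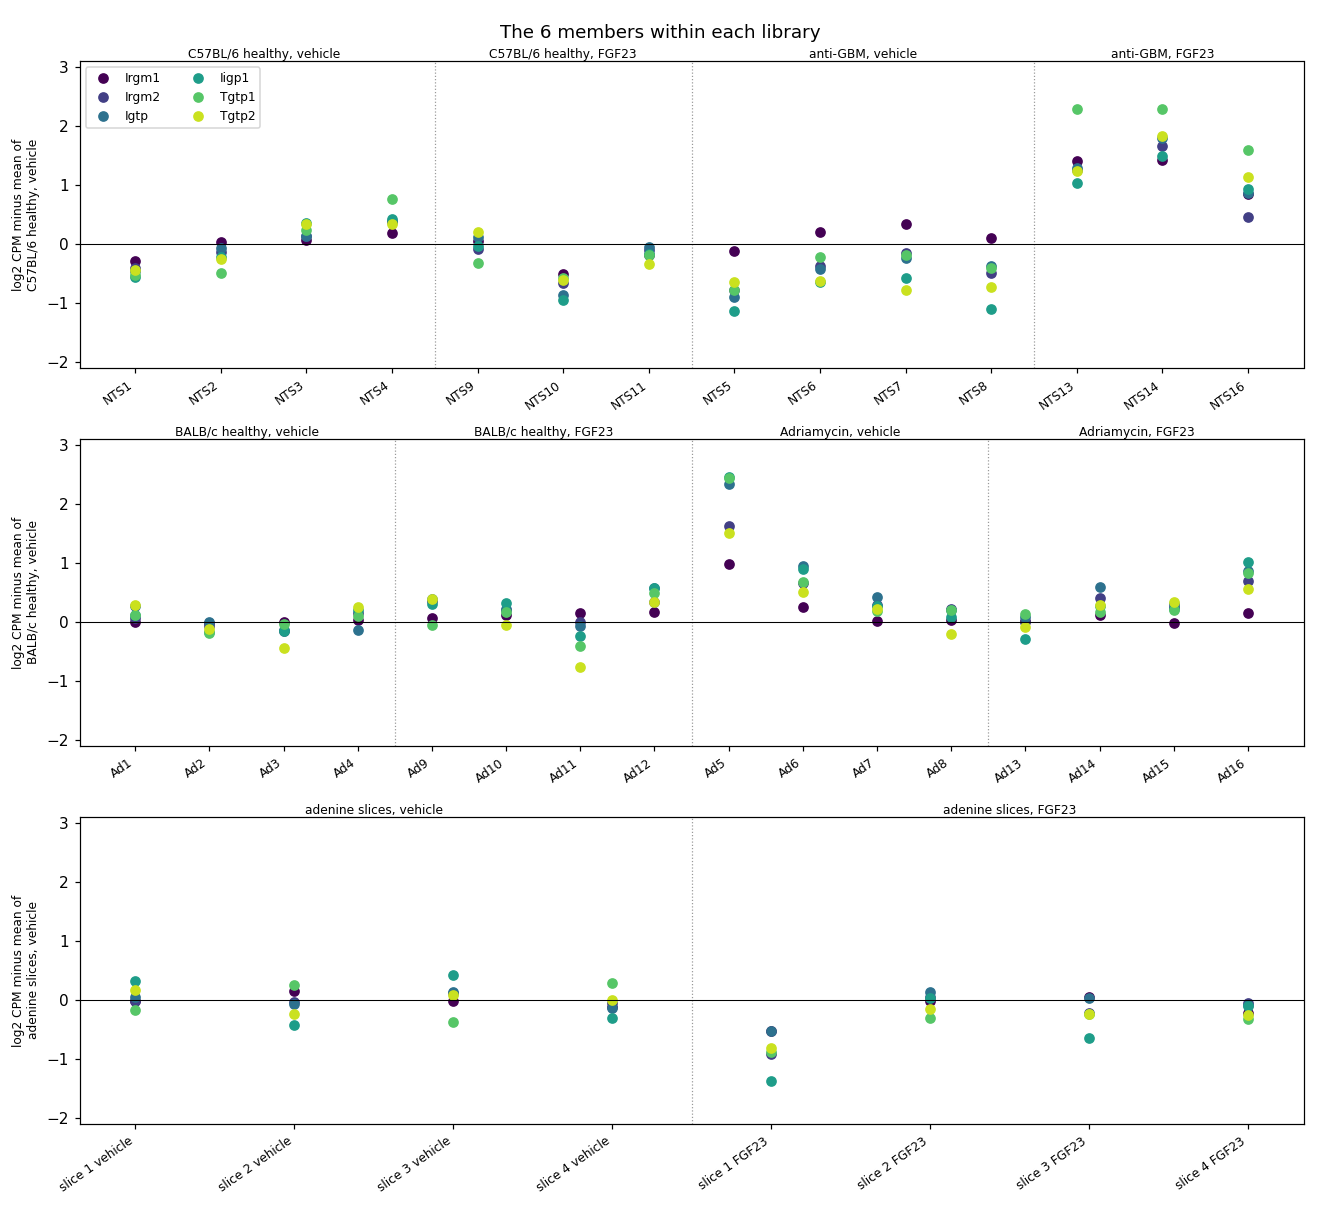
Log2 CPM of the 6 genes in each library minus the mean of the healthy vehicle group of its experiment (for slices, of the vehicle slices), with libraries along the horizontal axis and 1 colour for each gene. The 6 genes lie between 0.46 and 2.30 in NTS13, NTS14 and NTS16, between 0.99 and 2.45 in Ad5 and between -1.37 and -0.53 in slice 1 with FGF23. Several other libraries also have all 6 on 1 side of 0, such as NTS4 from 0.18 to 0.76 and NTS10 from -0.95 to -0.50.

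Other genes of the interferon-gamma pathway and its GTPases were then counted from lists. Over all tested genes 0.233% were called higher with FGF23 in anti-GBM mice. That contrast led to the choice of the 6 genes, and the lists were chosen with earlier results known. Nothing is therefore read from the counts of these lists. Beyond the 6 genes, 9 of 10 other IRG-like genes were testable in the anti-GBM experiment. In anti-GBM mice all 9 had higher values after FGF23 (median log2 fold change 1.29), and of these 9 only Gm4951 rose by the test (1.60, SE 0.29, from 1.08 to 2.505 CPM with vehicle to 4.41 to 6.81 CPM with FGF23). The largest value was that of Gm4841 at 2.87 (SE 0.55), which was not called and rested on 2 to 11 counts in each vehicle library and 29 to 53 in each FGF23 library. The others were at 2.15 for Gm12185, 1.30 for Gm12250, 1.29 for 9930111J21Rik1, 1.29 for F830016B08Rik, 1.06 for 9930111J21Rik2, 0.70 for Gm5431 and 0.17 for Irgq, none of them called. Several of these genes share sequence with each other, 9930111J21Rik1 at 80.9% of its windows.

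Guanylate-binding proteins gave 7 called of 9 testable of 11 listed, all higher, with a median of 1.36, where 0.233% of tested genes were called higher. Gbp4 rose by 1.85 on the log2 scale, from 4.68 to 6.69 CPM with vehicle to 16.9 to 27.98 CPM with FGF23, and Gbp5 by 1.34, Gbp2 by 1.14 and Gbp9 by 1.14. In the interferon-gamma signalling list, 4 of 16 testable genes rose, of 17 listed, and the median was 0.42. Among them were Irf1 (1.24), Stat2 (0.81) and Nlrc5 (1.31), the last being the transactivator of MHC class I genes. Irf1, the transcription factor through which many interferon-gamma targets are induced, stood at 21.9 to 28.7 CPM with vehicle and 48.1 to 69.1 CPM with FGF23. Nlrc5 stood at 6.62 to 9.52 CPM with vehicle and at 19.1 to 23.5 CPM with FGF23. The median over all tested genes was within 0.02 of 0 in this as in every other comparison.

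The remaining lists held no called gene in this comparison. All 17 type I interferon-induced genes were higher but 0 were called, with a median of 0.53, for example Ifit1 at 0.75, Irf7 at 0.65, Oasl2 at 0.60 and Ifih1 at 0.51. The 14 genes of ATG8 conjugation and autophagy had a median of -0.13 with 0 called, Gabarapl1 being at -0.39, Gabarap at -0.26, Ulk1 at -0.21 and Map1lc3b at -0.18. By edgeR at an unadjusted p under 0.05, 1998 of the 15859 tested genes passed here. Ifng itself, the gene of interferon-gamma, had 0 to 2 counts in each of the 38 libraries, 19 of them at 0, so its level was not measurable at this depth.

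The calls in these lists depended on the FGF23-treated libraries. Without NTS13 they were 1 guanylate-binding protein gene, 2 interferon-gamma signalling genes and 0 other IRG-like genes. Without NTS14 they were 1, 3 and 0 genes, and without NTS16 they were 7, 4 and 2 genes, with 1 macrophage marker called besides. The medians of the other IRG-like genes stayed between 1.18 and 1.44 and those of the guanylate-binding proteins between 1.17 and 1.51.

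**Figure D4:**
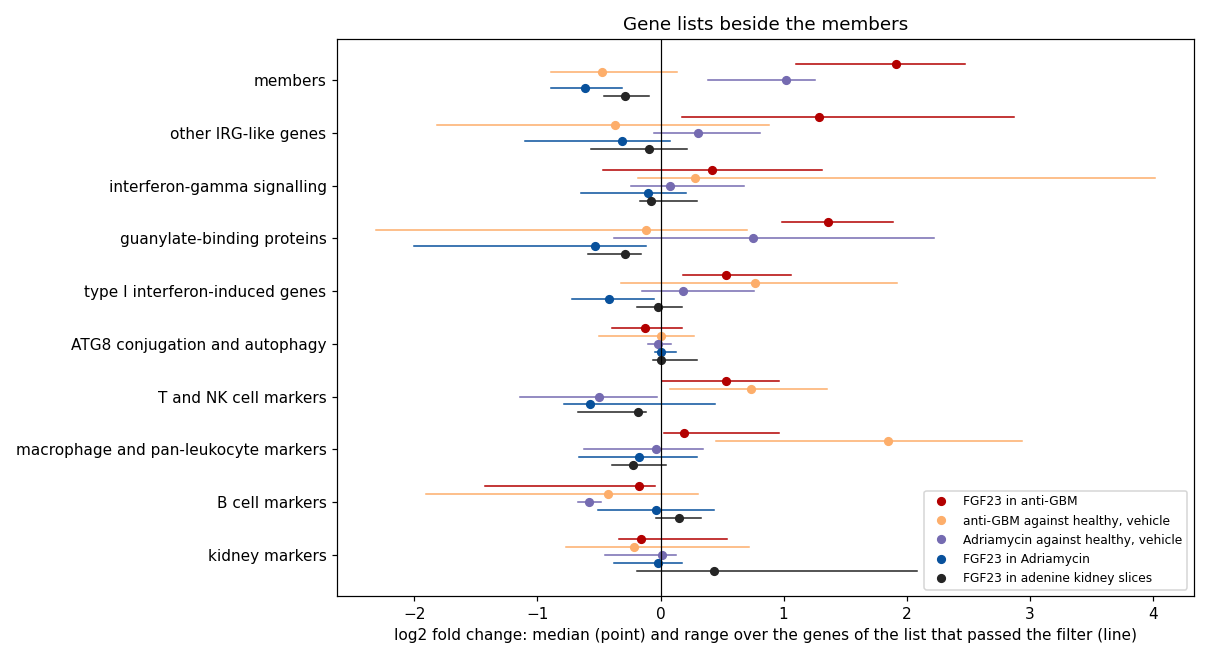
Log2 fold changes by gene list in 5 comparisons, with a point at the median of the testable genes of each list, a line from the lowest to the highest, and the 6 IRG genes at the top as members. For FGF23 in anti-GBM mice the medians are 1.92 for the 6 IRG genes, 1.36 for guanylate-binding proteins, 1.29 for other IRG-like genes, 0.53 for type I interferon-induced genes and 0.42 for interferon-gamma signalling.

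Under anti-GBM disease with vehicle, the lists did not move as 1 group. Against healthy vehicle mice, 11 of 17 type I interferon-induced genes rose, with a median of 0.77. Over all tested genes 19.4% were called higher and 20.4% lower. The other IRG-like genes had a median of -0.37 with 0 risen and 1 fallen (Gm4841, -1.81). Of the guanylate-binding proteins, Gbp3 (0.70) and Gbp2 (0.52) rose, and Gbp9 (-0.58), Gbp4 (-0.92) and Gbp10 (-2.31) fell. In the interferon-gamma signalling list 5 of 16 rose and 0 fell. These were both receptor chains, Ifngr1 (0.99) and Ifngr2 (0.65), Irf9 (0.54), and the inhibitors Ptpn2 (0.27) and Socs3, which curb cytokine signalling. Socs3 was at 1.95 to 3.74 CPM in healthy vehicle libraries and at 16.5 to 85.4 CPM in anti-GBM vehicle libraries, a log2 fold change of 4.02.

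Leukocyte markers differed between these groups too. In bulk kidney RNA, a change in the number of cells of a type and a change in RNA per cell cannot be told apart. The sum of 10 macrophage and pan-leukocyte markers was 153 to 157 CPM in healthy vehicle kidneys, 138 to 191 CPM in healthy FGF23 kidneys, 294 to 574 CPM in anti-GBM vehicle kidneys and 481 to 505 CPM in anti-GBM FGF23 kidneys. With disease under vehicle 9 of the 10 rose, with a median log2 fold change of 1.85, where 19.4% of tested genes were called higher. With FGF23 in diseased mice all 10 were higher, 0 were called and the median was 0.19, in a range of 0.02 to 0.96. The anti-GBM vehicle libraries NTS5 and NTS6 had marker sums of 507 and 574 CPM, as high as those with FGF23 or higher, and summed levels of the 6 IRG genes of 111 and 144 CPM, against 281 to 479 CPM with FGF23. The other anti-GBM vehicle libraries had lower marker sums, down to 294 CPM.

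T and NK cell markers, of which 8 of 12 were testable, summed to 8.13 to 14.01 CPM in anti-GBM vehicle kidneys and to 16.3 to 16.9 CPM in anti-GBM FGF23 kidneys, against 5.60 to 9.19 CPM in healthy vehicle kidneys. For FGF23 against vehicle in diseased mice, 0 of the 8 were called, all 8 were higher and the median was 0.54. Ptprc, the pan-leukocyte marker CD45, was at 12.9 to 30.8 CPM with vehicle and at 33.8 to 38.9 CPM with FGF23 (log2 fold change 0.60). Adgre1, the macrophage marker F4/80, was at 0.49, the T cell gene Cd3e at 0.45 and the NK cell gene Nkg7 at 0.11, none of them called. The sum of the 3 testable of 4 B cell markers was 0.864 to 3.22 CPM with vehicle and 1.201 to 2.13 CPM with FGF23. The sum of 10 kidney markers was 11010 to 13814 and 11507 to 13843 CPM. The part of leukocyte number in the higher IRG levels was not tested.

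**Figure D5:**
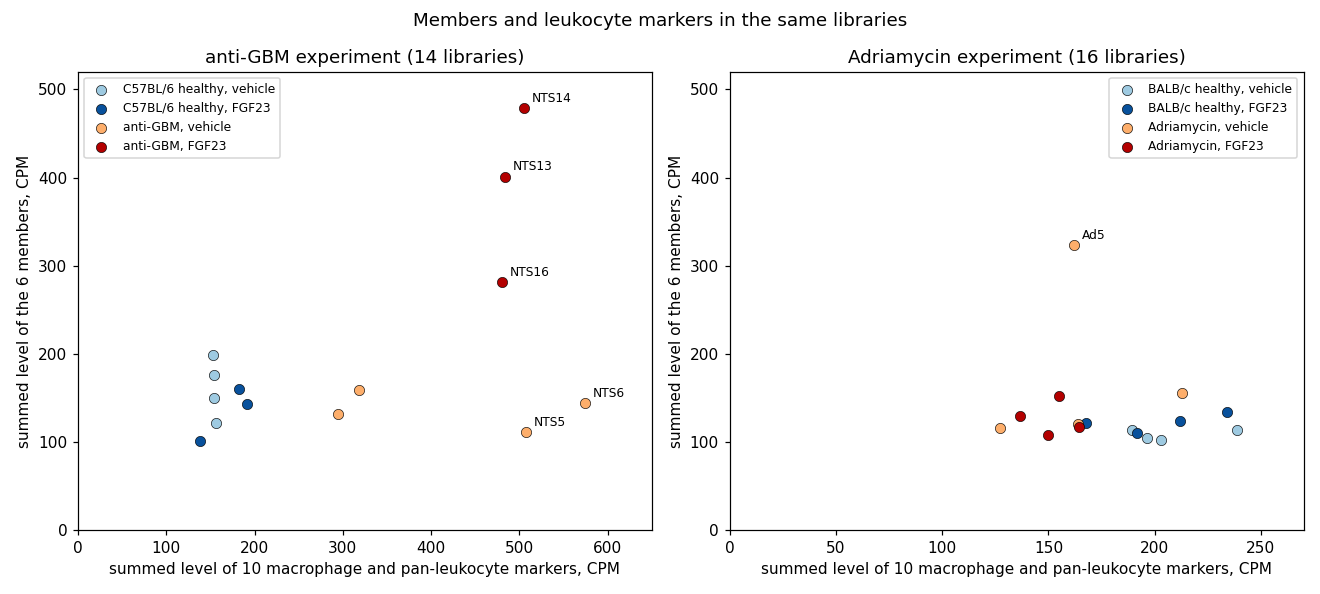
Summed CPM of the 6 IRG genes (vertical axis) against summed CPM of 10 macrophage and pan-leukocyte markers (horizontal axis), with 1 point for each library of the anti-GBM and Adriamycin experiments. The anti-GBM vehicle libraries have marker sums of 294 to 574 CPM and IRG sums of 111 to 159 CPM. The anti-GBM FGF23 libraries have marker sums of 481 to 505 CPM and IRG sums of 281 to 479 CPM, and Ad5 has 323 CPM at a marker sum of 162 CPM.

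In the Adriamycin experiment, disease went with higher values of all 6 genes under vehicle, but no gene passed the test and 1 library carried most of the difference. Against healthy vehicle mice the log2 fold changes were 0.39 (SE 0.15) for Irgm1, 0.82 (SE 0.24) for Irgm2, 1.23 (SE 0.35) for Igtp, 1.25 (SE 0.41) for Iigp1, 1.21 (SE 0.41) for Tgtp1 and 0.63 (SE 0.31) for Tgtp2. The adjusted p-values from edgeR ran from 0.234 for Igtp to 0.632 for Tgtp2, so 0 of 6 were called, where 0.331% of the 16020 tested genes were called. At an unadjusted p under 0.05, 5 of the 6 and 1325 of all tested genes passed, and DESeq2 called 1 of the 6, Irgm2 (adjusted p = 0.0495). Irgm2 and Tgtp1 had groups that did not overlap, all higher, where 2.84% of tested genes did so.

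The library that stood apart was Ad5. Irgm1 was at 117, 70.4, 59.6 and 60.2 CPM in the 4 Adriamycin vehicle libraries, of which the first is Ad5, and at 58.8, 57.8, 58.5 and 59.8 CPM in the healthy vehicle libraries. Iigp1 was at 60.1, 20.5, 13.2 and 11.7 CPM and at 11.9, 9.80, 9.90 and 12.7 CPM. Tgtp1 was at 16.6, 4.91, 3.49 and 3.52 CPM and at 3.33, 2.68, 2.99 and 3.30 CPM. Ad5 exceeded the mean of the other 3 libraries of its group by 1.84-fold for Irgm1, 2.34-fold for Irgm2, 3.43-fold for Igtp, 3.97-fold for Iigp1, 4.18-fold for Tgtp1 and 2.48-fold for Tgtp2. In the same library the guanylate-binding proteins summed to 270 CPM, against 113 to 173 CPM in the other 3, and the interferon-gamma signalling genes to 512 CPM, against 449 to 482 CPM. Its B cell marker sum, over the 2 testable genes of 4, was the lowest, 0.842 CPM against 1.10 to 1.31 CPM.

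The macrophage and T cell marker sums of Ad5 were within its group. Its macrophage and pan-leukocyte marker sum was 162 CPM in a group range of 127 to 213 CPM. That was below the 189 to 238 CPM of healthy vehicle mice. Its T and NK cell marker sum, over the 6 testable genes of 12, was 6.13 CPM in a group range of 3.76 to 7.90 CPM. Without Ad5 the log2 fold changes of the 6 genes with Adriamycin under vehicle ran from 0.11 to 0.55, with a median of 0.39 in place of 1.02, and 0 were called. The median of the guanylate-binding proteins went from 0.75 to 0.11 without this library. The interferon-gamma signalling list had a median of 0.08 and the other IRG-like genes of 0.30 with Ad5 in the fit, and 0 genes of any list were called with or without it.

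FGF23 given once to Adriamycin mice went with lower values of all 6 genes when Ad5 was in the vehicle group and with hardly any difference when it was not. The log2 fold changes were -0.32 for Irgm1, -0.47 for Irgm2, -0.76 for Igtp, -0.89 for Iigp1, -0.87 for Tgtp1 and -0.38 for Tgtp2, with edgeR adjusted p-values of 0.869 to 0.980. Thus 0 of 6 were called, where 0.0375% of tested genes were called, and 3 of the 6 and 912 of all tested genes passed at an unadjusted p under 0.05. Without Ad5 the values ran from -0.08 to 0.08, with a median of -0.04. With FGF23, Igtp stood at 11.6, 16.4, 13.4 and 19.7 CPM in Adriamycin mice, within the range of 12.5 to 54.9 CPM with vehicle except for 1 library at the low end.

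The interaction of FGF23 with Adriamycin ran from -1.15 for Iigp1 to -0.39 for Tgtp2 on the log2 scale, with edgeR adjusted p-values of 0.967 to 1.00. It was called for 0 of 6 genes, against a background of 0%, and 0 of the 6 and 819 of all tested genes passed at an unadjusted p under 0.05. For the effectors the intervals were wide, the 95% interval of Tgtp1 reaching from -2.19 to 0.29. Without Ad5 the interaction was -0.17 for Irgm1, -0.27 for Irgm2, -0.35 for Igtp, -0.35 for Iigp1, -0.10 for Tgtp1 and 0.0656 for Tgtp2.

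In healthy BALB/c mice a single injection of FGF23 went with log2 fold changes of 0.13 for Irgm1, 0.23 for Irgm2, 0.28 for Igtp, 0.26 for Iigp1, 0.08 for Tgtp1 and 0.01 for Tgtp2. The edgeR adjusted p-values were 0.886 to 0.998, and 0 of 6 genes were called, with 0% of tested genes called, and 0 of the 6 and 1072 of all tested genes at an unadjusted p under 0.05. Irgm1 was the only 1 of the 6 whose groups did not overlap, with 61.6 to 66.4 CPM with FGF23 and 57.8 to 59.8 CPM with vehicle, where 1.61% of tested genes were higher without overlap. The 95% interval of Irgm1 reached from -0.19 to 0.45 and that of Tgtp1 from -0.81 to 0.98. Adriamycin against healthy mice under FGF23 gave log2 fold changes from -0.06 for Irgm1 to 0.26 for Tgtp1. The edgeR adjusted p-values there were 0.815 to 0.955, and 0 of 6 genes were called, where 0.699% of tested genes were called, while at an unadjusted p under 0.05 edgeR passed 0 of the 6 and 2030 of all tested genes.

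In kidney slices of adenine-fed mice, all 6 genes had negative estimates with FGF23 and none passed the test. Irgm1 stood at 99.9, 112, 98.9 and 93.0 CPM in vehicle slices and at 69.7, 99.6, 104 and 86.5 CPM in FGF23 slices, a log2 fold change of -0.17 (SE 0.12). Irgm2 stood at 40.4, 39.9, 44.5 and 39.3 CPM and at 21.7, 42.3, 34.96 and 39.7 CPM (-0.24, SE 0.17), and Igtp at 33.1, 30.5, 35.2 and 29.1 CPM and at 22.02, 35.05, 32.7 and 29.95 CPM (-0.09, SE 0.14). For the regulators the lowest value was in slice 1 with FGF23 in each case, and the other slices overlapped. Iigp1 stood at 59.8, 35.7, 64.8 and 38.9 CPM and at 18.7, 49.5, 30.8 and 44.8 CPM (-0.46, SE 0.29). Tgtp1 stood at 6.13, 8.20, 5.29 and 8.39 CPM and at 3.73, 5.56, 5.80 and 5.48 CPM (-0.45, SE 0.20), and Tgtp2 at 9.79, 7.38, 9.26 and 8.77 CPM and at 5.004, 7.88, 7.44 and 7.30 CPM (-0.34, SE 0.17). The effectors likewise overlapped between the groups.

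The edgeR adjusted p-values of the 6 genes in slices were 0.849 to 0.918, with unadjusted p-values from 0.05001 for Tgtp1 to 0.520 for Igtp. Thus 0 of 6 were called, where 0% of the 15090 tested genes were called, and 738 of all tested genes passed at an unadjusted p under 0.05. The 95% intervals reached from -0.43 to 0.10 for Irgm1 and from -1.09 to 0.17 for Iigp1, so a rise of the size seen in anti-GBM mice lay outside them, although treatment, strain and tissue culture differ. With the reads of Tgtp1 and Tgtp2 added, the log2 fold change was -0.39 (unadjusted p = 0.0231, adjusted p = 0.849, edgeR). Without slice 1 with FGF23 the values ran from -0.33 to 0.03. The guanylate-binding proteins had a median of -0.29 in slices, all 10 testable genes being lower, and the other IRG-like genes a median of -0.09, with 0 genes of any list called.

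Slice 1 with FGF23 also had the highest sum of kidney markers, 8010 CPM, against 4266 to 4848 CPM in the other FGF23 slices and 2630 to 5621 CPM in vehicle slices. Macrophage and pan-leukocyte markers summed to 536 to 770 CPM in FGF23 slices and to 635 to 894 CPM in vehicle slices. The 6 testable of 12 T and NK cell markers summed to 15.6 to 20.9 and 20.4 to 23.01 CPM. The part of these differences in tissue makeup in the IRG values was not tested. Vehicle slices held 17.4 ± 1.35 CPM per kilobase of Irgm1 (SD, n = 4), 15.8 ± 1.34 of Igtp, 11.1 ± 0.641 of Irgm2 and 8.55 ± 2.51 of Iigp1, with Tgtp2 at 2.99 ± 0.351 and Tgtp1 at 2.18 ± 0.479. The ranges of mean ± SD of Irgm1 and Igtp overlapped there, as did those of Irgm2 and Iigp1. The order of the genes within each slice was not tested.

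Genes with the pattern most like that of the 6 were sought in each experiment by the Pearson correlation of log2 CPM with the mean of their standardised log2 CPM. Over the 14 libraries of the anti-GBM experiment the nearest 5 included BC023105 (0.944), Gbp6 (0.943), Ifi47 (0.919) and Gbp4 (0.919). Ifi47 is itself an IRG gene outside the 6, with 18.8, 22.7 and 17.6 CPM in anti-GBM FGF23 libraries and 6.65 to 8.69 CPM in anti-GBM vehicle libraries. It was not in the list of other IRG-like genes above, and it was called higher with FGF23 in anti-GBM mice (1.37, SE 0.21). Over the 16 Adriamycin libraries they were H2-Ab1 (0.970), an MHC class II gene, Gbp4 (0.964), Gbp2 (0.955), Tap1 (0.953), which carries peptides to MHC class I, and Gbp2b (0.948). Each of these was highest within the Adriamycin vehicle group in Ad5, H2-Ab1 at 206 CPM against 78.4 to 113 CPM and Tap1 at 32.1 CPM against 14.01 to 16.9 CPM. Over the 8 slices they were Sipa1l2 (0.983), Igfbp3 (0.982), Gtf3c4 (0.975), Akap10 (0.973) and Gm12250 (0.973), the last of which is an IRG-like gene. Each of these slice genes was lowest in slice 1 with FGF23, for example Igfbp3 at 490 CPM against 795 to 974 CPM in the other slices. Guanylate-binding proteins were thus among the nearest genes in both mouse experiments and not in the slices, where the ranking may rest on 1 library. The correlations describe libraries that share group and depth.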

How the data were processed

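The authors prepared stranded mRNA libraries (58-base reads), aligned them to GRCm38 with STAR 2.7.9a and counted reads per gene with featureCounts 1.5.1; FastQC 0.11.8 and bcl2fastq 2.20.0 are also named in the submitters' notes. They deposited 1 table of raw counts per gene for all 38 libraries, which holds counts and no normalised values. Columns were assigned to groups by the group headings of the study's count table; the labels do not say which mouse replicate each column is. No column was left unused.

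The counts were analysed with edgeR 4.0.16 in R 4.3.3. Genes were kept with filterByExpr (minimum count 10), libraries were scaled by the trimmed mean of M values, and 1 quasi-likelihood model with a mean for each group was fitted for each experiment over all genes. P-values were adjusted by Benjamini-Hochberg within each comparison. The script was tested on simulated data. Log2 CPM used a prior count of 2. Gene models were taken from the GRCm38 annotation.

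The 6 genes and all gene lists were chosen with earlier results of these data known. Named were the 6 genes, every testable other IRG-like gene, up to 4 genes of each further list with the smallest p for FGF23 in anti-GBM mice, 4 leukocyte markers and the 5 most similar genes of each experiment. For disease against health, Gbp10, Gbp3, Irf9, Ifngr1, Ifngr2, Ptpn2 and Socs3 were named after their values were seen, and likewise Ifng and the values of Ifi47 in each library. Alternatives were other size factors, other filters, DESeq2 1.42.0, a robust fit, a fold-change cutoff, only the compared groups, a wider p-value adjustment, Tgtp1 and Tgtp2 added, unscaled CPM, a block for slices, and each library left out. Leaving out single libraries for whole lists was added after the data were seen. A gene that the naming rule selects is not reported here.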

Additional observations from a re-analysis of the deposited data

Results flagged for a closer look

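In 3 groups of 4 libraries, 1 library lay far from the others for Tgtp1, by its gap to the nearest library divided by the range of the group (above Dixon's 95% critical value); 48 sets of 1 gene in 1 group were examined, and chance alone marks about 1 in 20. The ratio was 0.891 for Ad5, at 16.6 CPM, in Adriamycin mice with vehicle. It was 0.929 for Ad16, at 5.47 CPM against 3.37 to 3.52 CPM, in Adriamycin mice with FGF23. It was 0.845 for slice 1 with FGF23, at 3.73 CPM against 5.48 to 5.80 CPM, so the distance is small in absolute terms in the last 2 groups.

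The effect of FGF23 differed between anti-GBM and healthy C57BL/6JRj mice by 2.39 for Iigp1, 2.92 for Tgtp1 and 2.36 for Tgtp2 on the log2 scale, each called as an interaction by edgeR. The genes were chosen for their values in these anti-GBM mice, so this difference is a description. In the 3 healthy FGF23 libraries Tgtp1 was at 3.75 to 4.95 CPM and in the 3 anti-GBM FGF23 libraries at 16.9 to 27.5 CPM.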

How the results depend on the processing

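The number of the 6 genes called for the FGF23 by anti-GBM interaction was 3, and became 6 with no filter on low counts, 6 with DESeq2, 1 with Tgtp1 and Tgtp2 added, and 0 to 6 when 1 library was left out; it was 6 without NTS16. For anti-GBM disease against health under vehicle it was 2, and became 0 with a log2 fold change over 1 also required, 1 with Tgtp1 and Tgtp2 added, and 1 to 2 when 1 library was left out, being 1 without NTS3, NTS4 or NTS8. For FGF23 in anti-GBM mice it was 6, and 4 to 6 when 1 library was left out (4 without NTS13, 4 without NTS14). Under settings that kept all libraries, 51 of 53 log2 fold changes of this comparison kept the call. For Adriamycin against health under vehicle the number of genes called was 0, and 1 with DESeq2 (Irgm2, 0.82, DESeq2 adjusted p 0.0495). In the other comparisons with 0 of the 6 called by edgeR, DESeq2 also called 0. The cause of these changes was not tested. Of 541 log2 fold changes under settings that kept all libraries, 541 kept their direction and 527 their side of the threshold. Of the 14 that did not, 9 belong to the FGF23 by anti-GBM interaction and 2 to FGF23 in anti-GBM mice. Not every setting that changed a call is named above. The fold-change cutoff and the wider p-value adjustment used the log2 fold changes of the main fit, so direction could not change under them.

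Some estimates changed sign when 1 library was left out. Igtp for FGF23 in healthy C57BL/6JRj mice ran from -0.41 to 0.0071, the last without NTS10. Igtp in slices ran from -0.18 to 0.0308, the last without slice 1 with FGF23. Tgtp2 ran from -0.57 to 0.0795 for FGF23 in Adriamycin mice and from -0.58 to 0.0656 for the interaction, the upper value being the 1 without Ad5 in both. Iigp1 for Adriamycin against health under FGF23 ran from -0.18 without Ad16 to 0.27, and was also below 0 without Ad11. For FGF23 in healthy BALB/c mice, Tgtp1 ran from -0.0732 without Ad12 to 0.21, and Tgtp2 from -0.12 to 0.20, being below 0 without Ad2, Ad3, Ad9 or Ad12.

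Slices carry numbers in the labels, and the deviations of same-numbered slices correlated at 0.107, 0.105, -0.105 and 0.112. Slices 2 and 4 with FGF23 correlated best with the vehicle slice of the same number. Slice 1 with FGF23 correlated best with vehicle slice 3 (0.124) and slice 3 with vehicle slice 4 (0.058). Whether same-numbered slices came from 1 animal cannot be told from these values. With the replicate block 0 of the 6 genes were called, as without it. No paired analysis of the mouse experiments was made, because FGF23 and vehicle were given to separate mice. With 3 or 4 libraries in each group and fewer than 10 CPM of Tgtp1 and Tgtp2 in most of them, small differences in these genes were not detectable.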
